A study of Mus musculus with 6 samples.

Results

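Adrenomedullin and its receptor system were described by 5 genes, Adm, Calcrl, Ramp1, Ramp2 and Ramp3, out of the 17761 genes in the deposited table. The genes were chosen by name, with the Model against Control results of these data already known, and each symbol matched 1 row. Their Model against Control values are therefore given as a description, with no p-value for any of the 5, and how many passed the threshold is counted without anything being read from it. The study compared 3 Model libraries with 3 Control libraries of mouse tissue by RNA sequencing of total RNA depleted of ribosomal RNA. In the Model animals the inferior vena cava, the main vein of the lower body, was tied off surgically, and the vein was collected together with its clot 24 h later. Thrombus is the tissue named for all 6 libraries. The labels say nothing of what was done to the Control animals, and give no strain, sex, age or genotype for either group. Nor do they state that each library had its own animal, and so p-values here reflect only how far these libraries differ, which can be technical.

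Adrenomedullin is a secreted peptide that widens blood vessels and tightens the barrier formed by the endothelium, the inner lining of vessels. It is encoded by Adm, a textbook target of hypoxia-inducible factor and of inflammatory signals. Its receptor is built from a G protein-coupled receptor, the calcitonin receptor-like receptor encoded by Calcrl, which reaches the cell surface only together with a receptor activity-modifying protein (RAMP). CALCRL with RAMP2 or RAMP3 forms the adrenomedullin receptors, and CALCRL with RAMP1 forms the receptor for calcitonin gene-related peptide (CGRP), a vasodilator released by sensory nerves. The receptors signal mainly through the stimulatory G protein Gs and cyclic AMP, and CALCRL with RAMP2 is the main form in blood vessel endothelium.

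On GRCm38, in the GENCODE M21 annotation, Adm (ENSMUSG00000030790) lies on the plus strand of chromosome 7 at 110627661 to 110629820. Calcrl (ENSMUSG00000059588) lies on the minus strand of chromosome 2 at 84330626 to 84425411, and no other annotated gene overlaps it. Ramp1 (ENSMUSG00000034353) lies on the plus strand of chromosome 1 at 91179822 to 91225196 and also stands clear of other genes. Ramp3 (ENSMUSG00000041046) lies on the plus strand of chromosome 11 at 6658521 to 6677475, where 101 of its exonic bases overlap a pseudogene on the opposite strand, which the table does not list. Ramp2 (ENSMUSG00000001240) lies on the plus strand of the same chromosome at 101246028 to 101259546, and 1103 of its 3301 annotated exonic bases overlap exons of its neighbour Vps25 on the same strand. The overlap comes from an annotated nonsense-mediated decay transcript of Ramp2 that runs on into Vps25. Vps25 itself had 1, 20 and 3 counts in Model 1 to 3, against 0, 16 and 29 counts in Control 1 to 3. Ramp2 had 680 to 1121 counts in the Model libraries and 217 to 1651 counts in the Control libraries. How reads of the shared stretch were counted is not known, so the Ramp2 counts may include reads of Vps25, and every level, ratio and share of Ramp2 below carries that doubt. An antisense gene overlaps Adm on the opposite strand, with no exonic base in common. The strand setting of the counting is not given in the sources used here.

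The promoters of Adm and Ramp1, the members whose fitted changes lay furthest apart, are shown as RefSeq gives them for GRCm38.p6. Each runs from 250 bases before to 50 bases after the annotated start. Capitals mark the core of the hypoxia response element, ACGTG or GCGTG, found on either strand, so a core on the minus strand reads as CACGT or CACGC. The Adm window is chr7:110627407-110627706 on the plus strand, and the Ramp1 window is chr1:91179572-91179871 on the plus strand.
Adm: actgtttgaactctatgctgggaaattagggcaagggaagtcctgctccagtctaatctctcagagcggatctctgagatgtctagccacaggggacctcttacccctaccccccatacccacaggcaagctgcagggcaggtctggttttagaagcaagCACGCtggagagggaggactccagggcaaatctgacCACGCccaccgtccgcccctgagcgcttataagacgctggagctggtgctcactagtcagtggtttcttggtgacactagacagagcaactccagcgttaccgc
Ramp1: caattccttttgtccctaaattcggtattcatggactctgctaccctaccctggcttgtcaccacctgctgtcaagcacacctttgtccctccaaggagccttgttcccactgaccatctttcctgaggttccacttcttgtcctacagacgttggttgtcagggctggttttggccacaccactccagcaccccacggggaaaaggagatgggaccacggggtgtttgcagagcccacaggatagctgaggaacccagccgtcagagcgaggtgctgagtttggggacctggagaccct
The Adm window held 2 cores, both on the minus strand, beginning 90 and 54 bases before the start. The Ramp1 window held none of these letters. The windows of Calcrl and Ramp3 held 1 and 2 cores. Of 27025 mouse genes with such a window, 46.7% held at least 1 core, so a match in a window of this length is common and describes the letters only.

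Markers of the vein wall were present in all 6 libraries. Summed over 13 blood vessel endothelial markers, the level was 2152 to 3162 CPM (counts per 1e6 of the library total, after trimmed mean of M values, or TMM, scaling) in the Model libraries and 2185 to 2602 CPM in the Control libraries, with no marker at 0 in any library. The 10 smooth muscle and pericyte markers summed to 1757 to 3677 CPM in Model and 4325 to 6144 CPM in Control. The Control libraries, although labelled thrombus, held little of the cells of a clot. The 8 neutrophil markers summed to 2060 to 6193 CPM in Model and 28.4 to 99.5 CPM in Control, the 6 platelet markers to 391 to 929 CPM in Model and 50.7 to 147 CPM in Control, and the 6 red cell markers to 4894 to 28674 CPM in Model and 322 to 446 CPM in Control. Total counts were 25336173 to 28193281 in the Model libraries and 31924426 to 38118463 in the Control libraries, and 3 counts, the most that a count of 0 allows, came to 0.109 to 0.121 CPM in the Model libraries and 0.0730 to 0.0883 CPM in the Control libraries. That limit allows for counting error alone, as no molecular identifiers are mentioned. No 2 libraries were duplicates. Control 1 stood apart from the other Control libraries, with correlations of 0.825 and 0.815 across genes, against 0.904 between Control 2 and Control 3. Model 2 held 4686 CPM of 6 hepatocyte markers, against 43.4 and 97.3 CPM in the other Model libraries and 31.0 to 579 CPM in the Control libraries. Values without both of those libraries stand beside some of the results below.

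Among the 5 genes, the ligand gene Adm was 15.6-fold higher in ligated veins, the receptor gene Calcrl averaged 1.24-fold higher, and the RAMP genes went separate ways. Ramp1 was near 0 in 2 of the 3 Model libraries, Ramp2 overlapped between the groups, and Ramp3 was high in 2 Model libraries and at the floor in the third. All 5 passed the filter on low counts. By edgeR's quasi-likelihood test with a Benjamini-Hochberg adjusted p under 0.05, 1 of the 5 was called, Adm, against 4.07% of the 13907 genes tested. The share called was 2.71% for genes higher in Model and 1.36% for genes lower in Model. The groups did not overlap for 3 of the 5 (Adm, Calcrl and Ramp1), against 23.5% of all tested genes. Since the genes were selected with this contrast in view, nothing is read from these counts.

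**Figure D1:**
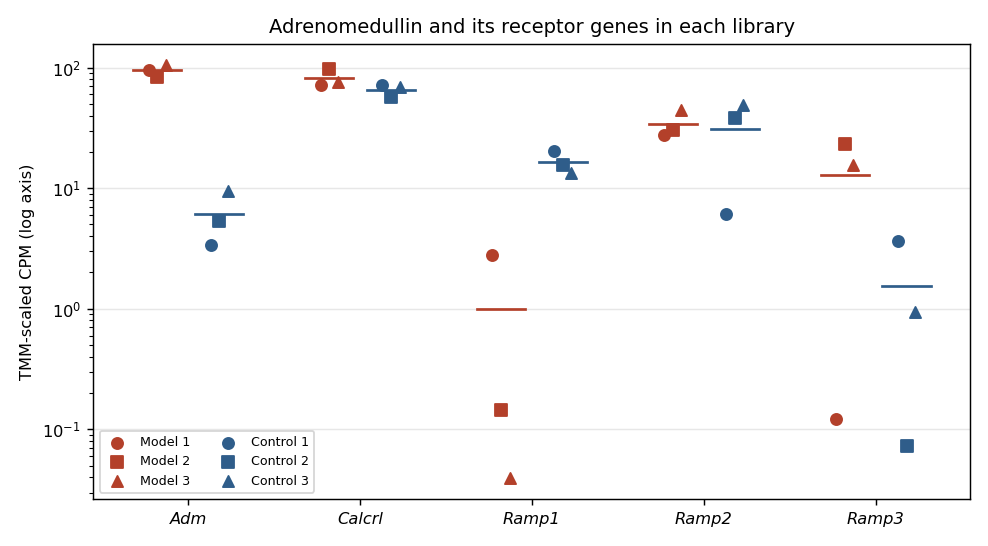
TMM-scaled CPM, on a log axis, of the 5 genes in the 3 Model libraries (red, left of each pair) and the 3 Control libraries (blue, right). Marker shapes give the library number and bars the group means. All Model points of Adm lie above all Control points, those of Ramp1 lie below, and Ramp3 is split within both groups.

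Adm, the adrenomedullin precursor gene, stood at 95.6, 83.2 and 105.7 CPM in Model 1 to 3, against 3.40, 5.36 and 9.42 CPM in Control 1 to 3. Every Model library was far above the highest Control library, and the Model libraries lay close together. The means were 94.8 ± 11.2 CPM in Model and 6.06 ± 3.07 CPM in Control (SD, n = 3 each), which gave a log2 fold change of 3.97 with a standard error (SE) of 0.47. These levels rested on 2286 to 2682 counts per Model library and 120 to 320 counts per Control library. With any 1 library left out, the log2 fold change of Adm lay between 3.67 and 4.43, and without both Control 1 and Model 2 it was 3.77.

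The ratio of Adm to endothelial signal showed the same separation. Per 1000 CPM of the summed endothelial markers, Adm was at 30.2, 38.7 and 41.5 CPM in Model 1 to 3, against 1.31, 2.45 and 4.26 CPM in Control 1 to 3. The summed endothelial signal overlapped between the groups, although its 13 markers did not move together. Of the 13, 5 had a positive and 8 a negative log2 fold change, and 1 was called higher, beside 2.71% of all tested genes. The groups did not overlap for 5 of them, beside 23.5% of all tested genes. The neutrophil, platelet and red cell signals given above were higher in every Model library. The 10 monocyte and macrophage markers summed to 693 to 1257 CPM in Model and 812 to 1680 CPM in Control, with overlap. They did not move together either. Among the 9 tested, 3 had a positive and 6 a negative log2 fold change, and 1 was called higher. The part of these cells in the Adm level was not tested. In tissue homogenates, a change in the number of cells that express a gene and a change in RNA per cell cannot be told apart.

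Calcrl, the receptor shared by adrenomedullin and CGRP, stood at 71.8, 96.6 and 76.0 CPM in Model 1 to 3, against 71.5, 56.5 and 68.5 CPM in Control 1 to 3. The groups met almost edge to edge, with the lowest Model library 71.8 and the highest Control library 71.5 CPM. The means were 81.4 ± 13.3 CPM in Model and 65.5 ± 7.92 CPM in Control (SD, n = 3 each), which gave a log2 fold change of 0.31 (SE 0.30). Calcrl varied little within groups. Its within-group SD was 0.20 on the log2 scale, and 5.63% of tested genes varied less. Per 1000 CPM of endothelial markers Calcrl was at 22.7, 44.9 and 29.8 CPM in Model 1 to 3 and at 27.5, 25.9 and 31.0 CPM in Control 1 to 3, so that the groups overlapped on this scale.

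Ramp1, whose protein turns CALCRL into the CGRP receptor, stood at 2.79, 0.146 and 0.0394 CPM in Model 1 to 3, against 20.4, 15.7 and 13.5 CPM in Control 1 to 3. The Model libraries held 69, 4 and 1 counts and the Control libraries 721, 645 and 458 counts. Model 3 was below the floor of 3 counts, and Model 1 carried nearly all of the Model signal. The means were 0.991 ± 1.56 CPM in Model and 16.5 ± 3.54 CPM in Control (SD, n = 3 each), and the fitted log2 fold change was -4.06 (SE 1.45). Model 1 alone set the size of that value: without it the log2 fold change was -7.42, and with any other library left out it lay between -4.18 and -3.49. Without both Control 1 and Model 2 it was -3.355.

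Ramp1 is known from smooth muscle, sensory neurons and immune cells, and the marker signals of smooth muscle and of immune cells did not all go the same way. All 10 smooth muscle and pericyte markers had a negative log2 fold change, 1 of them past the test, with the summed levels given above. The 6 T cell markers summed to 106 to 181 CPM in Model and 322 to 942 CPM in Control, with 4 of 6 lower past the test. The 5 B cell markers summed to 218 to 449 CPM in Model and 593 to 1054 CPM in Control, with 2 of 5 lower past the test. Beside these counts, 1.36% of all tested genes were called lower. The sum of the 8 neutrophil markers went the other way, at 2060 to 6193 CPM in Model and 28.4 to 99.5 CPM in Control. Monocyte and macrophage sums overlapped between the groups, as given above. No marker of the smooth muscle and pericyte, T cell and B cell lists was at 0 in any library. The part of all these cells in the Ramp1 level was not tested.

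Ramp2, the partner of CALCRL in the main adrenomedullin receptor of endothelium, stood at 27.5, 30.4 and 44.2 CPM in Model 1 to 3, against 6.14, 38.5 and 48.6 CPM in Control 1 to 3. The groups overlapped, and Control 1 was the low library. The means were 34.0 ± 8.92 CPM in Model and 31.1 ± 22.2 CPM in Control (SD, n = 3 each), which gave a log2 fold change of 0.13 (SE 0.63). The sign of the Ramp2 value was not fixed by the data. It was -0.37 without Control 1, -0.10 without Model 3 and -0.28 without both Control 1 and Model 2. Endothelial markers in Control 1, at 2602 CPM, were the highest of the Control libraries, and Ramp2 per 1000 CPM of endothelial markers was also low there, at 2.36 CPM against 17.6 and 22.0 CPM in Control 2 and Control 3. In Model 1 to 3 it was 8.69, 14.1 and 17.4 CPM.

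Ramp3, the alternative adrenomedullin receptor partner, stood at 0.121, 23.2 and 15.6 CPM in Model 1 to 3, against 3.62, 0.0730 and 0.942 CPM in Control 1 to 3. Model 1 and Control 2 held 3 counts each, while Model 2 and Model 3 held 636 and 397 counts and Control 1 and Control 3 held 128 and 32 counts. The groups overlapped, with Model 1 below 2 of the Control libraries. The means were 13.0 ± 11.7 CPM in Model and 1.55 ± 1.85 CPM in Control (SD, n = 3 each), and the fitted log2 fold change was 3.07 (SE 1.68). The within-group SD of Ramp3 was 3.22 on the log2 scale, above that of 98.9% of tested genes and against a median of 0.66. The other members' within-group SDs were 0.53 for Adm, 1.80 for Ramp1 and 1.18 for Ramp2.

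Hepatocyte marker signal, summed over 6 genes, was 43.4, 4686 and 97.3 CPM in Model 1 to 3 and 579, 164 and 31.0 CPM in Control 1 to 3. Beside these sums, Ramp3 stood at 0.121, 23.2 and 15.6 CPM in Model 1 to 3 and at 3.62, 0.0730 and 0.942 CPM in Control 1 to 3. Without Model 2 the log2 fold change of Ramp3 was 2.33, without Control 1 it was 4.65, and without both it was 3.95. The part of hepatocyte RNA in the Ramp3 level was not tested.

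**Figure D2:**
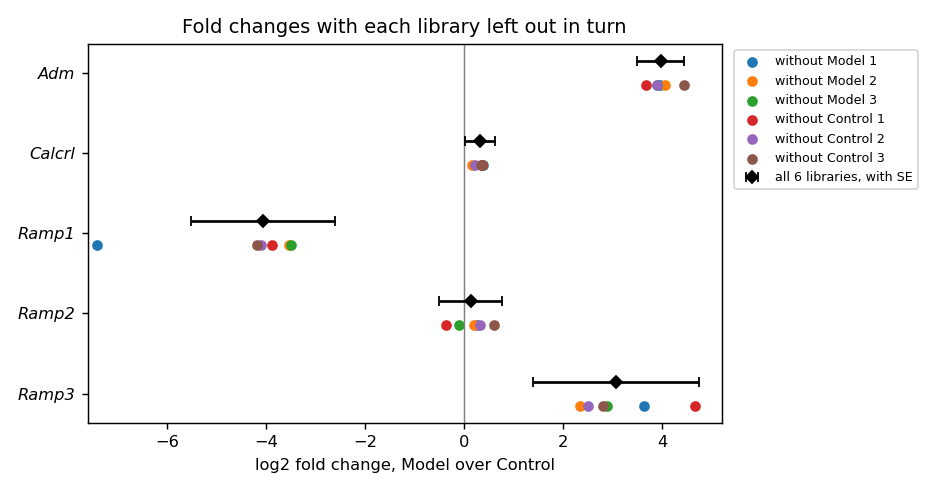
Log2 fold change, Model over Control, of the 5 genes with all 6 libraries (black diamonds, bars of 1 SE) and with each library left out in turn (coloured points). The Adm points stay between 3.67 and 4.43, the Ramp1 point without Model 1 lies at -7.42, and the Ramp2 points fall on both sides of 0.

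Levels were compared between the genes as CPM per kb of merged exons, since longer transcripts yield more reads. On that scale the order in Model was Adm (58.6 ± 6.94), Calcrl (16.7 ± 2.72), Ramp2 (10.3 ± 2.70), Ramp3 (9.40 ± 8.51) and Ramp1 (0.328 ± 0.515 CPM per kb, SD, n = 3). The order in Control was Calcrl (13.4 ± 1.62), Ramp2 (9.42 ± 6.72), Ramp1 (5.47 ± 1.17), Adm (3.74 ± 1.90) and Ramp3 (1.12 ± 1.34 CPM per kb, SD, n = 3). Among neighbours in the Model order, the libraries of Adm and Calcrl did not overlap, nor did those of Calcrl and Ramp2, while Ramp3 overlapped both Ramp2 and Ramp1. In the Control order the libraries of every pair of neighbours overlapped. Adm stood first of the 5 in every Model library, and below Calcrl in every Control library.

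The length given to Ramp2 changed its place. The transcript that matches RefSeq, of 1178 bases, was also used in place of the 3301 merged bases that include the stretch shared with Vps25. With it, Ramp2 averaged 28.9 ± 7.57 CPM per kb in Model and 26.4 ± 18.8 CPM per kb in Control. Both means lay above those of Calcrl, but in Control 1 Ramp2 was below Calcrl, at 5.21 against 14.6 CPM per kb. This alternative length was added after the data were seen. Relative to Calcrl per kb, Ramp2 was at 0.630 ± 0.205 in Model and 0.728 ± 0.521 in Control with merged exons (SD, n = 3 each), and at 1.77 ± 0.575 in Model and 2.04 ± 1.46 in Control with the RefSeq-matched length. The ratio of Ramp1 to Calcrl per kb was 0.0627, 0.00244 and 0.000838 in Model 1 to 3, against 0.461, 0.449 and 0.318 in Control 1 to 3. That of Ramp3 to Calcrl was 0.00597, 0.848 and 0.728 in Model 1 to 3, against 0.179, 0.00457 and 0.0486 in Control 1 to 3. The Model value of Ramp1 came mostly from Model 1 and the Control value of Ramp3 mostly from Control 1.

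The make-up of the RAMP transcripts differed from library to library. Of the summed CPM per kb of the 3 Ramp genes, Ramp1 gave 9.88, 0.185 and 0.0527% in Model 1 to 3, against 60.1, 30.7 and 22.5% in Control 1 to 3. Ramp2 gave 89.2, 35.3 and 54.1% in Model 1 to 3, against 16.6, 69.0 and 74.1% in Control 1 to 3. Ramp3 gave 0.941, 64.5 and 45.8% in Model 1 to 3, against 23.4, 0.313 and 3.44% in Control 1 to 3. Every Model library thus had a smaller Ramp1 share than every Control library, while the Ramp2 and Ramp3 shares overlapped between the groups. The leading RAMP was Ramp2 in Model 1 and Model 3 and Ramp3 in Model 2, against Ramp1 in Control 1 and Ramp2 in Control 2 and Control 3. With the RefSeq-matched lengths, Ramp2 led in all 3 Model libraries and Ramp1 still led in Control 1, with 51.8%.

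**Figure D3:**
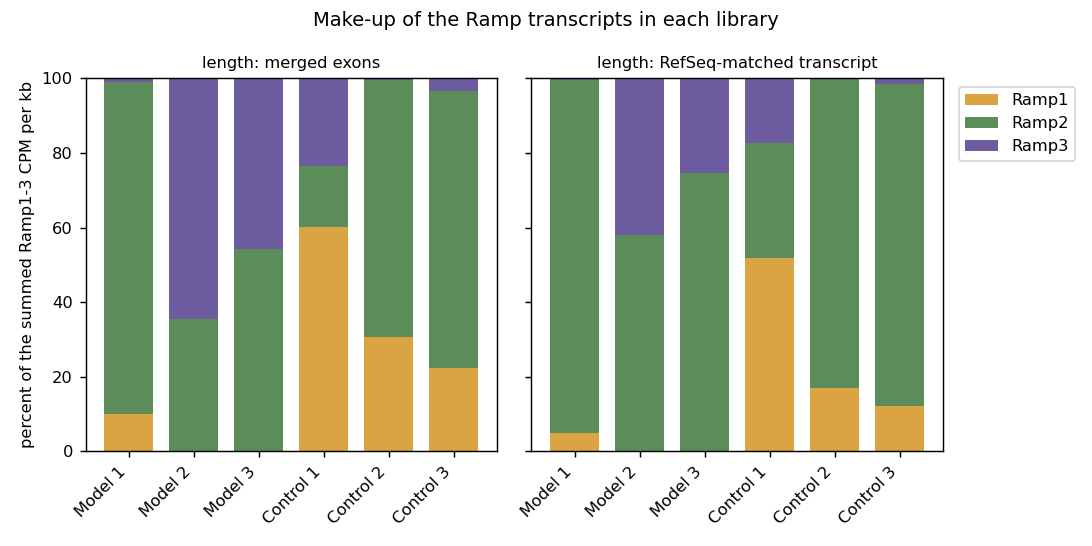
Percent of the summed CPM per kb of Ramp1, Ramp2 and Ramp3 that each gene gave in the 3 Model and 3 Control libraries, with lengths from merged exons (left) and from the RefSeq-matched transcripts (right). The Ramp1 share is at most 9.88% in Model libraries and at least 22.5% in Control libraries with merged exons, and Control 1 differs from the other Control libraries in both panels.

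Genes with the most similar profile were found for each member over the 6 libraries, as those with the smallest root mean square (RMS) difference in centred log2 CPM among 10378 genes with a mean of at least 8 CPM. For Adm they were Ier3 (RMS 0.34), Slc39a14 (0.38) and Serpina3n (0.41), each higher in all Model libraries. Serpina3n, a serine protease inhibitor, averaged 2299 ± 663 CPM in Model and 134 ± 11.0 CPM in Control, and Slc39a14, a zinc transporter, averaged 798 ± 257 CPM in Model and 58.2 ± 11.8 CPM in Control (SD, n = 3 each). Ier3, an immediate early response gene, averaged 107 ± 41.9 CPM in Model and 8.58 ± 5.21 CPM in Control. For Calcrl they included Zdhhc9 and Wapal, each with an RMS difference of 0.08, and both varied little over the libraries.

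For Ramp1 the nearest genes were Plxnb3 (RMS 0.51), Podnl1 (0.60) and Clec12a (0.65), each of them, like Ramp1, above 1 CPM in Model 1 and near 0 in Model 2 and Model 3. Plxnb3, a semaphorin receptor gene, stood at 3.68, 0.255 and 0.0394 CPM in Model 1 to 3, against 47.2, 13.3 and 11.6 CPM in Control 1 to 3. For Ramp2 they were Snx7 (0.15), Rhot2 (0.16) and Naglu (0.17), all low in Control 1. Snx7, a sorting nexin gene, stood at 8.93, 11.3 and 18.9 CPM in Model 1 to 3, against 2.52, 15.6 and 16.5 CPM in Control 1 to 3. RMS differences tend to be larger for genes that vary more between libraries, as Ramp3 did, so they are not compared between members. Nearest to Ramp3 were Ces3a (1.38), a carboxylesterase gene of the liver, and the chemokine genes Ccl12 (1.41) and Ccl7 (1.67). All of them were low in Model 1 and in Control 2.

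Other ligands of the family were at or near 0 in most libraries. Adm2, which encodes the related peptide intermedin, stood at 0, 0.401 and 3.27 CPM in Model 1 to 3, and was at 0 counts in all 3 Control libraries. Calca, which encodes calcitonin and CGRP, stood at 0.0404, 9.65 and 1.10 CPM in Model 1 to 3, against 0, 0.0243 and 0.0294 CPM in Control 1 to 3. Calcb and the calcitonin receptor gene Calcr had 1 count each, both in Model 2. None of these genes passed the filter on low counts, so they were not tested. Each of them had fewer counts than Adm in every library of both groups.

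Of 8 tested genes listed under peptide processing, binding and clearance, none was higher and 1 was lower past the test. Over all tested genes, 2.71% were called higher and 1.36% lower. Not all 8 are established as acting on adrenomedullin itself. Their median log2 fold change was 0.25, beside -0.01 over all tested genes. That median was 0.02 without Model 1. At an unadjusted p under 0.05, 3 were higher and 1 lower, DESeq2 called 2 higher and 1 lower, and limma-voom called none. Over the whole table, 2200 of 13907 tested genes were at an unadjusted p under 0.05 in either direction, which stands beside such counts here and below. The gene called lower was Mme, whose product neprilysin degrades adrenomedullin and other peptides. Mme averaged 20.4 ± 4.78 CPM in Model and 66.2 ± 8.23 CPM in Control (SD, n = 3 each), which gave a log2 fold change of -1.70 with an SE of 0.40 (adjusted p = 0.0313 by edgeR's quasi-likelihood test). All 3 Model libraries lay below every Control library. The call was lost in 7 of 14 alternatives, among them the fits without Control 2 (adjusted p = 0.107), Control 3 (0.137), Model 2 (0.102) or Model 3 (0.0827), and the fit without both Control 1 and Model 2 (0.0908). Ackr3, a decoy receptor that takes up adrenomedullin, averaged higher in Model without passing the test (log2 fold change 1.39, adjusted p = 0.0944 by the same test). Pam, which amidates the peptide to its active form, had a log2 fold change of -0.50 (adjusted p = 0.353). Ackr3 and Pam are named for their roles, after their values were seen.

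Genes of the Gs and cyclic AMP route, through which CALCRL signals, showed no common direction. Of 24 rows tested, 2 of them for Pde4d, 1 was higher and 1 lower past the test, with a median log2 fold change of -0.11. The sign of that median turned without Control 1 (0.08) and without both Control 1 and Model 2 (0.14). Counted at an unadjusted p under 0.05, 3 were higher and 5 lower. DESeq2 and limma-voom each called 1 higher and 1 lower. Akap12, an anchoring protein for protein kinase A, rose to 583 ± 114 CPM in Model, against 193 ± 63.0 CPM in Control (SD, n = 3 each), which gave a log2 fold change of 1.60 with an SE of 0.28 (adjusted p = 0.00666 by edgeR's quasi-likelihood test). Adcy7, an adenylyl cyclase that makes cyclic AMP, fell to 47.7 ± 7.87 CPM in Model, against 146 ± 59.0 CPM in Control, a log2 fold change of -1.61 with an SE of 0.33 (adjusted p = 0.0171). The Adcy7 call was also lost without Control 1 (adjusted p = 0.0650), Model 1 (0.0652) or Model 3 (0.0557). Without both Control 1 and Model 2 neither gene passed the test, with adjusted p values of 0.0922 for Akap12 and 0.0926 for Adcy7.

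Of 5 genes of the nitric oxide and cyclic GMP route, which adrenomedullin engages in endothelium, edgeR called none, with a median log2 fold change of 0.25. Without Model 1 the median was -0.16 and 1 gene was called lower, and over the other single libraries left out the median lay between 0.07 (without Control 3) and 0.47 (without Model 3). At an unadjusted p under 0.05, 1 was lower, DESeq2 called 1 lower, and limma-voom called none. Of 8 genes of receptor desensitisation and trafficking, 1 was lower past the test and none was higher, with a median of 0.31, which was 0.54 without Control 3 and 0.52 without Model 1. At an unadjusted p under 0.05, 3 were higher and 1 lower in this list, and DESeq2 and limma-voom each called 1 lower and none higher. The gene called was Adrbk2, a kinase that switches off activated G protein-coupled receptors, which fell to 47.9 ± 9.40 CPM in Model, against 136 ± 38.9 CPM in Control (SD, n = 3 each), which gave a log2 fold change of -1.51 with an SE of 0.31 (adjusted p = 0.0162 by edgeR's quasi-likelihood test). It lost the call in 4 of 14 alternatives, among them the fits without Control 1 (adjusted p = 0.0584), Model 2 (0.0544) or Model 3 (0.0550), and the fit without both Control 1 and Model 2 (0.135). Of the other receptors known to pair with RAMPs, 6 of 12 listed were tested and edgeR called none, with a median of -1.67. That median was -0.70 without Control 2 and -2.41 without Model 1, and -0.79 over the 3 genes left at a minimum count of 100. At an unadjusted p under 0.05, 1 was lower, and neither DESeq2 nor limma-voom called any.

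In the list of hypoxia-inducible genes, a group to which Adm is known to belong, 9 of 18 tested rose past the test and none fell. This list also holds Hif1a, Epas1 and Arnt, which encode subunits of hypoxia-inducible factor itself, and Hif1a was among the 9. Of all 13907 tested genes, 2.71% were called higher and 1.36% lower. The median log2 fold change of the 18 was 1.52, beside -0.01 over all tested genes. Of the 18, 17 had a positive log2 fold change, and the groups did not overlap for 14, beside 23.5% of all tested genes. At an unadjusted p under 0.05, 13 were higher and 0 lower, beside 2200 of all 13907 tested genes in either direction. DESeq2 called 13 higher and limma-voom 10. The list was drawn up with Adm's result known, so its direction is not independent evidence.

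The leading genes of that list were Ero1l and Egln3. Ero1l, an oxidase of protein folding in the endoplasmic reticulum, rose to 373 ± 150 CPM in Model, against 33.8 ± 11.6 CPM in Control (SD, n = 3 each), which gave a log2 fold change of 3.46 with an SE of 0.38 (adjusted p = 2.54e-04 by edgeR's quasi-likelihood test). Egln3, an oxygen-sensing prolyl hydroxylase, rose to 72.7 ± 34.0 CPM in Model, against 8.88 ± 4.07 CPM in Control, a log2 fold change of 3.03 with an SE of 0.54 (adjusted p = 0.00701). Both kept the call in all 14 alternatives. The count of 9 was 5 without Model 1, 7 to 9 without any other single library, and 7 without both Control 1 and Model 2. Of the 19 genes listed, tested or not, 17 had a RefSeq promoter window. Each of the 17 held at least 1 hypoxia core, beside 46.7% of all genes with a window, and so did 3 of the 4 members with a window. Since the genes were listed for their known link to hypoxia, nothing is read from this count.

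**Figure D4:**
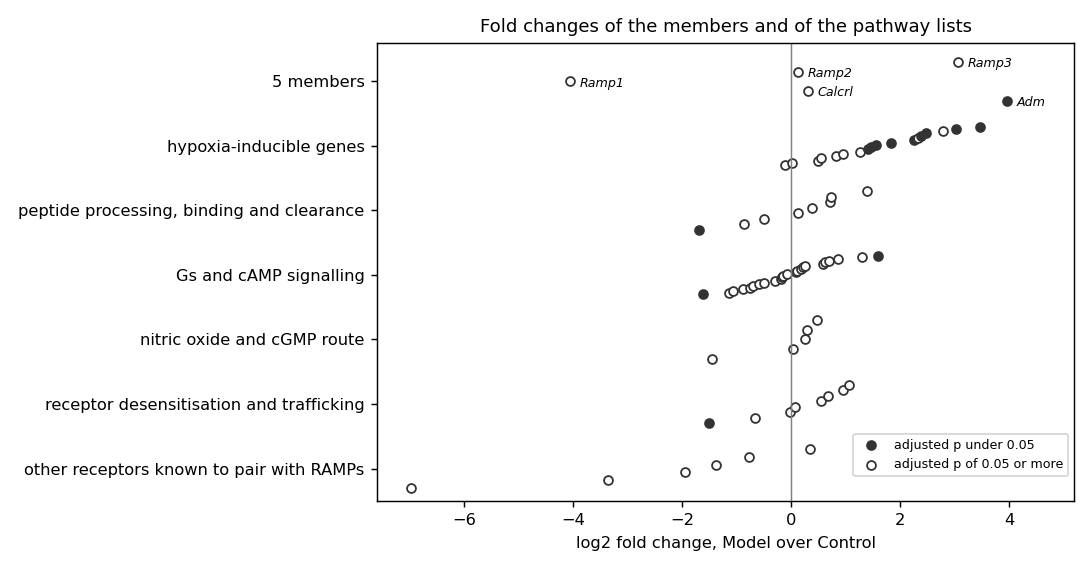
Log2 fold change, Model over Control, of the 5 members and of the tested genes of 6 pathway lists. Filled points have an adjusted p under 0.05 by edgeR's quasi-likelihood test and open points do not. Of the 18 genes on the hypoxia-inducible list 17 lie right of 0, while the other lists fall on both sides and Ramp1 lies at -4.06.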

How the data were processed

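Per the labels' protocols, total RNA was depleted of ribosomal RNA, paired reads of low-input libraries came from an Illumina NovaSeq, and cutadapt 1.9.3 trimmed them. STAR 2.5.1b, edgeR 3.16.5 and the build mm10 appear in the submitters' processing notes. How reads were counted, on which annotation and with what strand setting is not given in the sources used here. Per the file headers, the deposited table gives unnormalized counts of each gene in 6 libraries. It has 6 further per-sample columns that were not used.

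These counts went into edgeR 4.0.16 (R 4.3.3). The filterByExpr filter, at a minimum count of 10, retained 13907 genes, and TMM factors scaled the libraries. Model was compared with Control, all 6 libraries in 1 fit with no covariate, by the quasi-likelihood test, two-sided, at a Benjamini-Hochberg adjusted p (over all tested genes) under 0.05. SEs were obtained by dividing each log2 fold change by the root of its F statistic. Log2 CPM for profiles and within-group SDs used a prior count of 2. The fit was tested on simulated counts. Gene positions and lengths came from GENCODE M21, which holds 17555 of the 17761 identifiers, and promoters from RefSeq on GRCm38.p6, which gave a window for 4 of the 5 members.

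The members and the gene lists were chosen with earlier results of these data known. Besides the members, the text names up to 2 genes called higher and 2 called lower of each pathway list by the size of the change, and the 3 genes with the profile nearest to each member. Among these nearest genes, 1 gene is not reported here. Marker lists check the tissue and stand beside members. The alternatives were leaving out each library, leaving out both Control 1 and Model 2, a replicate block, scaling by RLE or by upper quartile, no filter, a minimum count of 100, DESeq2 1.42.0 and limma-voom (limma 3.58.1). Other lengths per gene were tried for levels per kb.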

Additional observations from a re-analysis of the deposited data

How the results depend on the processing

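Ero1l and Egln3 kept their direction and their call in all 14 alternatives. Against 566 genes called (377 higher and 189 lower in Model), 285 were called without both Control 1 and Model 2 (222 higher, 63 lower), 1111 with no filter (642 higher, 469 lower) and 1217 with DESeq2 (639 higher, 578 lower), and limma-voom called 115 lower. Leaving out 1 library gave 317 to 440 genes, 221 to 312 higher and 92 to 136 lower. The causes were not tested, except that fits without a library use fewer samples. Of the members, 1 was called, and 2 with DESeq2 and without Model 1, where Ramp1 was added (1 to 2 over single libraries left out). Since the members were chosen on this contrast, their calls support nothing. Of the pathway genes, 10 were higher, 16 with DESeq2 and 6 (without Model 1) to 10 with 1 library left out. Of them 3 were lower, 0 without both Control 1 and Model 2, and 0 (without Model 3) to 3 with 1 library left out. It was 1 without Control 1 or without Model 2. The log2 fold change of Ramp1, -4.06, was -7.42 to -3.49 with 1 library left out, and that of Ramp3, 3.07, was 2.33 to 4.65. That of Adm, 3.97, was 3.67 to 4.43. Ramp2 kept its sign in 11 of 14 alternatives. Ramp1 relative to Calcrl per kb in Control, 0.409, was 0.532 with the longest or the RefSeq-matched transcript. Ramp2 relative to Calcrl was 1.41 and 1.77 with those lengths in Model, against 0.630 with merged exons, and 1.63 and 2.04 in Control, against 0.728.

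Same-numbered Model and Control libraries had correlated deviations of 0.147, 0.119 and 0.00367 for numbers 1 to 3, so the numbers were not taken to pair the libraries. With the replicate number as a block, 575 genes were called, 1 gene of the nitric oxide and cyclic GMP route was called lower (as with no filter), and the log2 fold change of Ramp1 was -5.89. Model 1 and Model 2 correlated best with their own number and Model 3 did not. Low counts limit the levels of Ramp1 in Model 2 and Model 3 and of Ramp3 in Model 1 and Control 2, where 1 to 4 counts were found. Control 2 had the highest total counts of all libraries.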

Other observations

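Of 13907 tested genes, 680 (4.89%) were at least 4-fold lower in Model 1 than in the next lowest library, 275 in Model 2 and 359 in Model 3. Among the Control libraries, Control 1 was lowest by that margin for 1190 genes (8.56%), Ramp2 among them, Control 2 for 18 (0.129%) and Control 3 for 53. At least 4-fold lower values in both Model 1 and Control 2 than in each of the other libraries were found for 8 genes (0.0575%), Ramp3 among them with a margin of 7.77-fold. Those are the libraries where Ramp3 was lowest, so its place among the 8 is not a finding. No other pair of libraries was counted.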
